A study of Mus musculus with 16 samples.

Results

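The comparison described here is that of TRIM28 mKO muscle after myotenectomy (KO MTE, 4 libraries) with wild type muscle after the same operation (WT MTE, 4 libraries), which are 8 of the 15 libraries in the deposited count table. The tissue was the plantaris, an ankle plantar flexor of the mouse hindlimb, and the mice were 9 to 12 weeks old. Myotenectomy is an operation that places a mechanical overload on the plantaris, so both groups were overloaded and differed in genotype alone, as far as the labels state. The same genotypes were also operated on without overload, as KO Sham (3 libraries for 4 labelled samples) and WT Sham (4 libraries), and these were used as independent libraries. Neither the promoter or Cre that drives the deletion nor the exons removed, the sex of the mice and the days between surgery and collection were stated in the sources used here. The labels do not say that each sample is a separate animal. The p-values therefore reflect the spread among the libraries, part of which may be technical. All genes were included: 16938 of the 17230 genes in the table passed the filter on low counts and were tested.

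TRIM28, also called KAP1, is a corepressor that is brought to DNA by zinc finger proteins with a KRAB domain and that recruits histone methyltransferase and heterochromatin proteins there. It is known for silencing retroelements, for keeping imprinted loci and zinc finger gene clusters in a repressed state, and for interacting with myogenic transcription factors in muscle cells. Overload of a synergist muscle makes fibres grow and shifts them toward a slower phenotype, while macrophages and matrix-producing cells increase around them.

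Total counts lay between 36.8 M and 69.2 M reads in KO MTE and between 26.5 M and 40.05 M reads in WT MTE, and WT MTE 4 had the lowest total. In the first 2 principal components of the 8 libraries, the first (30.7% of the variance) set WT MTE 4 apart and the second (26.7%) ran from the KO MTE libraries 3 and 4 to the WT MTE libraries 1 and 2. Mitochondrially encoded genes took 7.09% to 9.01% of counts in KO MTE and 6.21% to 8.97% in WT MTE. Markers of skeletal muscle fibres were abundant in every library: 16 of 16 such genes were tested, and their summed level ran from 134211 to 234714 CPM in KO MTE and from 151681 to 283074 CPM in WT MTE. CPM are read counts relative to library size, after the TMM scaling that sets libraries of unequal composition on one scale.

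Trim28 itself, the targeted gene (chr7:12999114-13031035, GRCm38), had 33.8, 28.0, 20.1 and 27.8 CPM in KO MTE, against 65.7, 55.2, 51.4 and 38.5 CPM in WT MTE. All 4 KO MTE libraries lay below all 4 WT MTE libraries, and the log2 fold change of KO MTE over WT MTE was -0.94 ± 0.19 (SE), with an edgeR adjusted p of 0.0248. Permuting the group labels over the 8 values of log2 CPM, exact and two-sided, gave p = 0.0286, the smallest that 4 libraries against 4 allow. The fitted ratio of KO MTE to WT MTE was 0.520, so Trim28 RNA remained in the overloaded KO muscles. In bulk tissue a lower level in every cell and a loss in some of the cells cannot be told apart, here or in any gene below. The adjusted p rose above 0.05 without WT MTE 2 (0.0567), WT MTE 3 (0.0808), KO MTE 2 (0.0797) or KO MTE 4 (0.0644) and in a fit of all 15 libraries (0.0822). Of the 25 other tested genes of the TRIM28 silencing complex, among them Setdb1 (0.07), Cbx5 (0.26) and Atf7ip (-0.05), none was called by edgeR, DESeq2 or limma voom, and 3 of the 26, Trim28 included, had an unadjusted p under 0.05.

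With edgeR's quasi-likelihood test and Benjamini-Hochberg adjustment over all genes, 575 genes (3.39% of those tested) had an adjusted p under 0.05. The calls were 395 genes (2.33%) higher and 180 genes (1.06%) lower in KO MTE, and 178 of the higher and 72 of the lower ones differed at least 2-fold. At an unadjusted p under 0.05 there were 3344 of the 16938 genes tested, and DESeq2 called 1560 genes (892 higher, 668 lower). Counts within a gene list, by edgeR, at that p or by DESeq2, are to be read beside these. A fit of all 15 libraries called 253 genes (1.47%), 209 higher (1.21%) and 44 lower (0.256%). Libraries of the groups did not overlap for 390 of the 395 higher and 176 of the 180 lower genes, where 7.09% of all tested genes had the 4 KO MTE libraries above and 5.20% had them below the WT MTE libraries. The number of calls fell when 1 library was left out: it was 146 without WT MTE 3, 163 without KO MTE 2, 230 without KO MTE 4 and 295 without WT MTE 2. Fits without 1 library also hold fewer samples, here and below. A call lost in such a fit need not have been decided by that library.

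**Figure D1:**
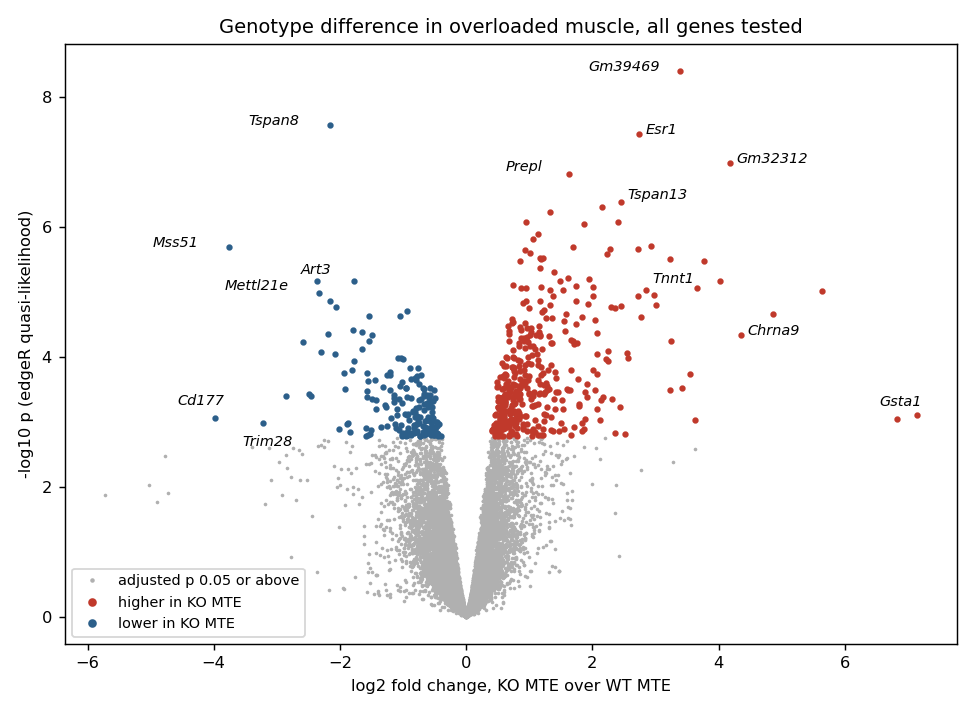
Log2 fold change of KO MTE over WT MTE (x axis) against the negative log10 of the unadjusted edgeR p (y axis) for the 16938 genes tested, with genes at an adjusted p under 0.05 in red (395 higher in KO MTE) and blue (180 lower). Gm39469, Tspan8 and Esr1 had the smallest p, and Gsta1 and Mss51 were among the largest differences.

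Protein-coding genes made up 351 of the higher and 164 of the lower calls (2.49% and 1.16% of the 14099 tested). Long intergenic noncoding RNAs were called higher in 19 and lower in 6 of 400 (4.75% and 1.5%). Over all long noncoding classes together the shares were 1.79% higher and 0.525% lower of 2287.

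The gene with the smallest p was Gm39469, a long intergenic noncoding RNA at chr9:124270358-124282139. It had 17.1, 25.4, 30.4 and 24.0 CPM in KO MTE, against 2.08, 2.16, 2.42 and 2.66 CPM in WT MTE. The groups were far apart, and the log2 fold change was 3.38 ± 0.20 (edgeR adjusted p 6.9e-05). Esr1, which encodes the oestrogen receptor alpha, a nuclear receptor that binds oestrogens and acts on transcription, lies at chr10:4611593-5005614. Its level was 203, 160.3, 202 and 293 CPM in KO MTE, against 29.1, 40.2, 29.3 and 30.1 CPM in WT MTE. Every KO MTE library exceeded the highest WT MTE library by a wide margin, with a log2 fold change of 2.74 ± 0.20 (adjusted p 0.000216). None of the other 29 nuclear receptors and coregulators of muscle that were tested was called, and their list, Esr1 included, had a median log2 fold change of -0.06, with 6 genes at an unadjusted p under 0.05 and 1 higher and 1 lower by DESeq2.

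Gm32312, an antisense transcript at chr16:27317944-27326641 inside the body of Ostn, had 3.05, 2.66, 2.45 and 2.22 CPM in KO MTE, against 0.102, 0.0909, 0.129 and 0.291 CPM in WT MTE. Its log2 fold change was 4.17 ± 0.33 (adjusted p 0.000443). Ostn, which encodes the secreted muscle peptide osteocrin, differed in the other direction. It had 0.559, 1.00, 0.408 and 0.488 CPM in KO MTE, against 2.90, 3.93, 2.88 and 1.79 CPM in WT MTE, a log2 fold change of -2.20 ± 0.33 (adjusted p 0.00785). The library kit was stranded, but the sources used here do not say how the counting treated the strand, so reads of the pair may be shared.

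The other 7 of the 10 higher genes with the smallest p were of mixed function. Prepl, a serine hydrolase related to prolyl endopeptidase, had 87.2, 107, 125 and 113 CPM in KO MTE, against 38.5, 36.2, 29.7 and 35.5 CPM in WT MTE. This was a log2 fold change of 1.63 ± 0.14 (adjusted p 0.000521). All 4 KO MTE libraries were above all 4 WT MTE libraries. The tetraspanin Tspan13, a membrane protein, had 77.6, 134, 129 and 164 CPM in KO MTE, against 20.9, 29.3, 21.9 and 19.7 CPM in WT MTE. The fitted log2 fold change was 2.46 ± 0.22 (adjusted p 0.00117). Rab15, a small GTPase of endosomal traffic, had 61.7, 108, 91.0 and 113 CPM in KO MTE, against 24.2, 20.5, 23.0 and 16.2 CPM in WT MTE. KO MTE differed by a log2 fold change of 2.15 ± 0.20 (adjusted p 0.0012). In all 3 genes the lowest KO MTE library was at least 2 times the highest WT MTE library. The glutathione transferase Gsto1 averaged 68.1 ± 8.18 CPM in KO MTE, against 27.2 ± 2.96 CPM in WT MTE (SD, n = 4 each, here and below). The ubiquitin ligase Trim16 averaged 79.3 ± 5.06 CPM in KO MTE, against 41.2 ± 1.07 CPM in WT MTE. The peptidylarginine deiminase Padi2, which converts arginine residues to citrulline, averaged 133 ± 23.0 CPM in KO MTE, against 36.5 ± 8.63 CPM in WT MTE. Their log2 fold changes were 1.32, 0.94 and 1.87, with adjusted p of 0.00124, 0.00141 and 0.00141. Trim16 shows how tight some of these groups were, since its 4 WT MTE libraries spanned 40.2 to 42.4 CPM. Pdzd3, a PDZ domain scaffold, was near the detection range, at 1.94 ± 0.346 CPM in KO MTE, against 0.364 ± 0.0419 CPM in WT MTE (log2 fold change 2.41, adjusted p 0.00141).

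Some of the largest differences were of genes that were almost silent in WT MTE. The alpha-class glutathione transferase Gsta1 had 1.30, 4.18, 17.7 and 49.7 CPM in KO MTE, against 0, 0.114, 0.154 and 0.291 CPM in WT MTE. Its neighbour and near copy Gm3776 had 1.77, 5.53, 34.8 and 69.3 CPM in KO MTE, against 0.205, 0.159, 0.360 and 0.249 CPM in WT MTE. Both were low in KO MTE 1 and 2 and high in KO MTE 3 and 4, so the KO MTE libraries were widely spread. The groups did not overlap, which was a condition for naming the largest differences. The log2 fold changes were 7.14 ± 1.40 and 6.83 ± 1.33, with adjusted p of 0.0352 and 0.038, and the adjoining Gsta4 had 11.9, 12.1, 32.9 and 61.4 CPM in KO MTE, against 5.20, 6.18, 5.37 and 5.11 CPM in WT MTE. These paralogs can share reads, so the level of each is uncertain. With limma voom both calls were lost. Leaving out 1 library ended the calls of Gsta1 (any library but KO MTE 1 and KO MTE 4, adjusted p up to 0.113) and Gm3776 (KO MTE 3, WT MTE 1, WT MTE 2, WT MTE 3 or WT MTE 4, adjusted p up to 0.107).

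Other genes in this class were steadier across the KO MTE libraries. Oas1e, a member of the oligoadenylate synthetase family, was nearly undetected in WT MTE, with 0.419, 1.88, 1.09 and 1.19 CPM in KO MTE, against 0, 0.0227, 0.0514 and 0 CPM in WT MTE (adjusted p 0.00361). None of 36 interferon-stimulated genes was called by edgeR (5 at an unadjusted p under 0.05, and 1 lower by DESeq2), and their median log2 fold change was -0.14. Dnaic1, an axonemal dynein chain of motile cilia, had 1.14, 3.91, 2.29 and 3.23 CPM in KO MTE, against 0.205, 0.0909, 0.309 and 0.249 CPM in WT MTE. The groups were well apart, with a log2 fold change of 3.65 ± 0.46 (adjusted p 0.0036). Acox2, a peroxisomal oxidase of branched-chain acyl-CoA, had 3.42, 4.56, 3.27 and 5.29 CPM in KO MTE, against 0.615, 0.614, 0.669 and 0.208 CPM in WT MTE. The fit gave a log2 fold change of 2.92 ± 0.31 (adjusted p 0.00202). Kcng4, a modulatory subunit of voltage-gated potassium channels, ran from 9.55 to 50.2 CPM in KO MTE and from 1.41 to 3.68 CPM in WT MTE (log2 fold change 3.25, adjusted p 0.00871). Nppb, which encodes brain natriuretic peptide, and Akain1, an inhibitor of protein kinase A anchoring, had log2 fold changes of 3.23 and 3.0 from WT MTE means of 0.164 and 0.364 CPM. Removal of 1 library ended the call of Nppb (KO MTE 2, KO MTE 4, WT MTE 2 or WT MTE 3, adjusted p up to 0.0822). Neither limma voom nor the fit of all 15 libraries called Nppb (adjusted p 0.0544 and 0.0524). The noncoding Gm45670 and Gm43797 had log2 fold changes of 4.03 and 3.23.

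Keratins 18 and 8, partners in the intermediate filaments of simple epithelia, were higher together, and their genes adjoin each other on chromosome 15. Krt18 had 5.98, 12.6, 18.7 and 73.1 CPM in KO MTE, against 2.08, 1.43, 3.52 and 1.91 CPM in WT MTE, and its log2 fold change was 3.62 ± 0.76 (adjusted p 0.0386). KO MTE 4 stood above the rest, and the call was lost with limma voom and when 1 library was left out (any library but KO MTE 1 and KO MTE 4, adjusted p up to 0.117). Krt8, named because it adjoins Krt18, had 3.05, 7.29, 4.27 and 19.9 CPM in KO MTE, against 1.999, 1.16, 1.88 and 1.66 CPM in WT MTE (log2 fold change 2.36, adjusted p 0.0482, or 0.0989 in the fit of all 15 libraries). The immunoglobulin constant gene Ighg2c had 0.931, 2.40, 2.45 and 6.35 CPM in KO MTE, against 0.487, 0.0682, 0.283 and 0.291 CPM in WT MTE. Its log2 fold change was 3.43 (adjusted p 0.0219), and the call ended without 1 library (KO MTE 2, WT MTE 3 or WT MTE 4, adjusted p up to 0.0835). Igkc and Igha, also antibody constant genes, were lower, with log2 fold changes of -1.31 and -1.21 (adjusted p 0.0213 and 0.0224). For Krt8, Igkc and Igha, fits without 1 library were not examined.

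Among the genes that fell, Tspan8, another tetraspanin, had the smallest p. It had 5.17, 4.24, 4.20 and 3.93 CPM in KO MTE, against 22.6, 16.5, 19.9 and 19.4 CPM in WT MTE. No KO MTE library came near the WT MTE range, and the log2 fold change was -2.16 ± 0.15 (adjusted p 0.000216). Mss51, a muscle gene named after a yeast activator of mitochondrial translation and known in mouse muscle as a regulator of oxidative metabolism that lies downstream of myostatin, lies at chr14:20482867-20496901. Its level was 14.5, 4.04, 7.76 and 4.61 CPM in KO MTE, against 109, 113, 116 and 81.3 CPM in WT MTE. The WT MTE libraries were thus all above 80 CPM and the KO MTE libraries all below 15 CPM, with a log2 fold change of -3.76 ± 0.39 (adjusted p 0.00202).

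The protein lysine methyltransferases Mettl21c and Mettl21e, which lie close together on chromosome 1 and are known as muscle enzymes, both fell. Mettl21c had 8.59, 15.4, 19.4 and 12.0 CPM in KO MTE, against 48.1, 33.5, 37.8 and 55.6 CPM in WT MTE. Its log2 fold change came to -1.66 ± 0.25 (adjusted p 0.00766). Mettl21e had 0.652, 0.522, 0.431 and 0.516 CPM in KO MTE, against 1.79, 3.77, 3.19 and 1.87 CPM in WT MTE. On the log2 scale the difference was -2.33 ± 0.30 (adjusted p 0.00382). The KO MTE libraries of both genes lay below every WT MTE library. Mitochondrial uncoupling protein Ucp3 had 9.22, 8.79, 10.1 and 7.81 CPM in KO MTE, against 27.9, 35.9, 62.8 and 23.2 CPM in WT MTE. It fell, with a log2 fold change of -2.06 ± 0.28 (adjusted p 0.00475), and WT MTE 3 was the highest library. The call of Ucp3 was lost in the fit of all 15 libraries (adjusted p 0.0645). Art3, of the ADP-ribosyltransferase family, averaged 40.1 ± 11.7 CPM in KO MTE, against 137 ± 25.9 CPM in WT MTE (log2 fold change -1.78, adjusted p 0.00335).

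**Figure D2:**
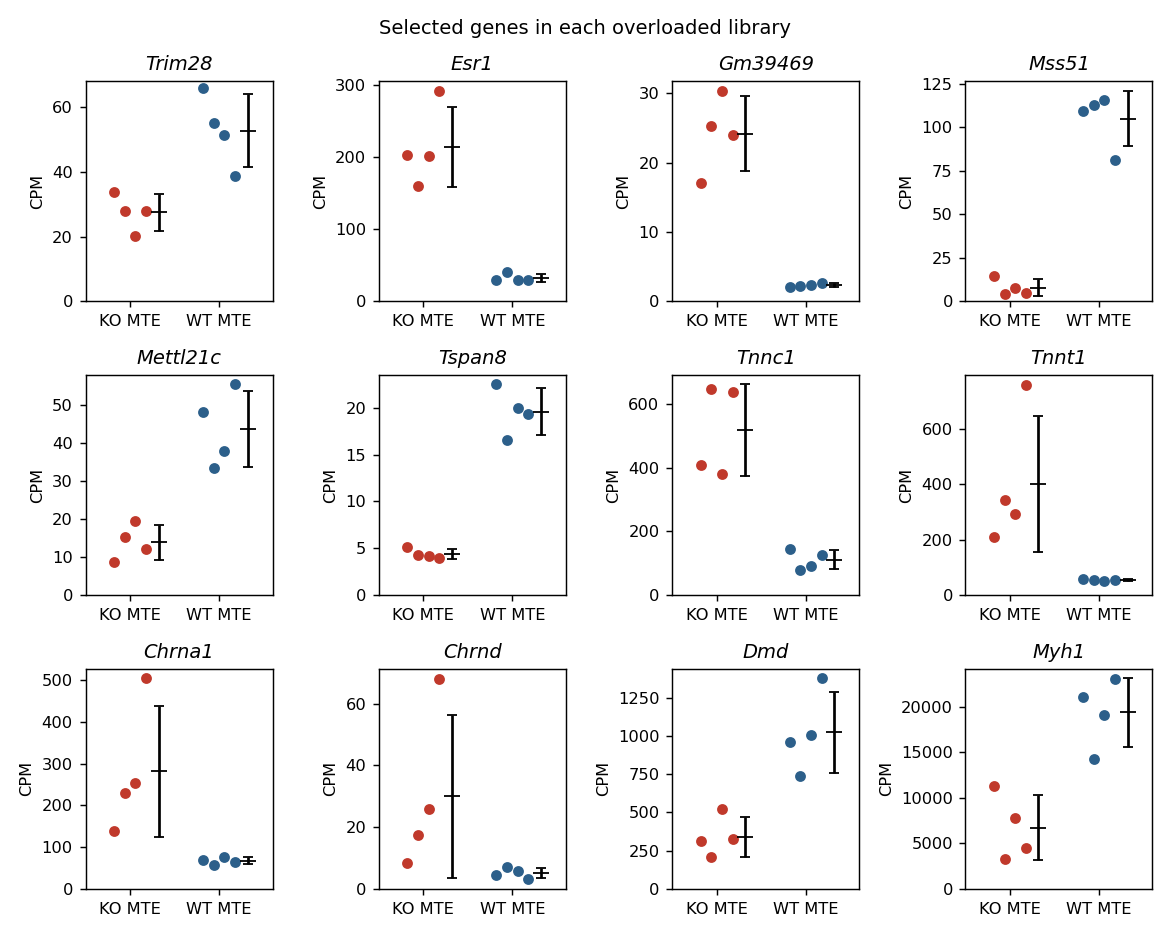
CPM of 12 genes in each of the 4 KO MTE (red, left) and 4 WT MTE (blue, right) libraries, 1 point a library, with the mean and SD beside them; every axis starts at 0. The groups do not overlap in any of the 12 panels. All 12 genes were called, and non-overlap held for 390 of the 395 genes called higher and 176 of the 180 called lower. In Tnnt1, Chrna1 and Chrnd the KO MTE libraries are the more spread.

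Further genes were lower in KO MTE. Pak1, a p21-activated kinase, averaged 23.4 ± 3.42 CPM in KO MTE, against 48.3 ± 7.26 CPM in WT MTE (log2 fold change -1.04, adjusted p 0.00566). The amylase gene Amy1 averaged 9.83 ± 3.08 CPM in KO MTE, against 28.7 ± 4.41 CPM in WT MTE (-1.55, adjusted p 0.0057). Pygl, the liver form of glycogen phosphorylase, averaged 7.31 ± 0.286 CPM in KO MTE, against 14.0 ± 1.44 CPM in WT MTE (-0.93, adjusted p 0.00517). Pygl lost its call in the fit of all 15 libraries (adjusted p 0.412), and so did Dach2, Itih4 and Ppbp of the genes described next (adjusted p 0.114, 0.0619 and 0.11). Dach2, a transcriptional cofactor that is known from the response to denervation, had 0.303, 0.110, 0.250 and 0.434 CPM in KO MTE, against 0.948, 2.07, 1.75 and 1.54 CPM in WT MTE (log2 fold change -2.58 ± 0.40, adjusted p 0.00878). The noncoding RNAs Gm28651 and Gm4544 had log2 fold changes of -2.36 and -2.17. Flrt1, a leucine-rich repeat membrane protein, the epidermal growth factor gene Egf and Itih4 had log2 fold changes of -2.01, -0.83 and -1.94. The calls that ended when 1 library was left out were those of Flrt1 (any library but KO MTE 1 and WT MTE 4, adjusted p up to 0.139), Egf (any library but KO MTE 3 and WT MTE 1, adjusted p up to 0.150) and Itih4 (KO MTE 2 or KO MTE 4, adjusted p up to 0.0720). The amino acid transporter Slc6a19 had 1.54, 1.52, 1.997 and 4.504 CPM in KO MTE, against 16.3, 4.98, 15.4 and 31.8 CPM in WT MTE. The corresponding log2 fold change was -2.85 ± 0.55 (adjusted p 0.0244), and the call was lost without 1 library (KO MTE 1, KO MTE 2, KO MTE 3, WT MTE 1 or WT MTE 3, adjusted p up to 0.0974).

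The largest fitted decrease, that of the neutrophil surface protein Cd177, rested on part of the WT MTE libraries. Cd177 had 0.186, 0.385, 0.227 and 0.244 CPM in KO MTE, against 6.74, 0.818, 0.720 and 9.05 CPM in WT MTE. WT MTE 1 and 4 were high and WT MTE 2 and 3 were within 1 CPM of the KO MTE libraries, and the call at a log2 fold change of -3.98 ± 0.85 (adjusted p 0.0373) was lost in 10 of 15 other settings. Among these were fits without 1 library (any library but WT MTE 2 and WT MTE 3, adjusted p up to 0.118). The platelet chemokine Ppbp was likewise highest in WT MTE 4, at 0.559, 0.453, 0.250 and 0.217 CPM in KO MTE, against 2.13, 1.41, 0.952 and 4.19 CPM in WT MTE (log2 fold change -2.50, adjusted p 0.0238), with no call without 1 library (KO MTE 2, KO MTE 3 or KO MTE 4, adjusted p up to 0.0756). S100a8 and S100a9, which are abundant in neutrophils, had log2 fold changes of -2.84 and -3.40 and did not pass (adjusted p 0.0843 and 0.0596), with WT MTE 1 and 4 again the highest.

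Sarcomere and calcium genes typical of slow fibres were partly higher in KO MTE. Of 16 slow fibre genes, 5 rose (31.25%, against 2.33% of all genes) and none fell. Their median log2 fold change was 0.18, against -0.01 over all genes. That median moved with single libraries, between 0.09 without KO MTE 1 and 0.43 without KO MTE 3. Tnnc1, the slow and cardiac troponin C, had 409, 648, 381 and 638 CPM in KO MTE, against 144, 79.7, 91.8 and 125 CPM in WT MTE. That is a log2 fold change of 2.23 ± 0.25 (adjusted p 0.00215). Tnnt1, the slow troponin T, had 210.1, 342, 292 and 760.0 CPM in KO MTE, against 59.5, 54.4, 52.1 and 55.9 CPM in WT MTE. This was a log2 fold change of 2.85 ± 0.35 (adjusted p 0.00361). Tnni1, the slow troponin I, completed the troponin complex with 138, 219, 121 and 170.5 CPM in KO MTE, against 65.1, 49.5, 50.3 and 28.9 CPM in WT MTE. The fitted log2 fold change was 1.74 ± 0.25 (adjusted p 0.00642). The 3 slow troponin subunits thus all differed more than 3-fold. Their groups did not overlap, as in 390 of the 395 genes called higher. Casq2, the calsequestrin of slow and cardiac muscle, averaged 470.2 ± 91.0 CPM in KO MTE, against 229 ± 35.5 CPM in WT MTE (log2 fold change 1.04, adjusted p 0.0117), and sarcolipin, Sln, a regulator of the calcium pump, averaged 189 ± 87.0 CPM in KO MTE, against 61.6 ± 11.3 CPM in WT MTE (1.62, adjusted p 0.0223). Leaving out 1 library ended the call of Casq2 (KO MTE 2 or WT MTE 3, adjusted p up to 0.0580) but of none of the 3 troponins, while in the fit of all 15 libraries Tnni1 and Sln were not called (adjusted p 0.114 and 0.225). For Sln, fits without 1 library were not examined. The slow myosin heavy chain gene Myh7 did not pass, at 176, 99.4, 39.4 and 128 CPM in KO MTE, against 82.0, 132, 81.7 and 115 CPM in WT MTE (log2 fold change 0.11 ± 0.37), and neither did the slow light chains Myl2 (-0.07) and Myl3 (0.25) or myoglobin, Mb (-0.23).

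Of 19 fast fibre genes, edgeR called 1 lower (5.26%, against 1.06% of all genes) and none higher, and DESeq2 called 3 higher and 3 lower. Their median log2 fold change was 0.14, between -0.03 without KO MTE 1 and 0.27 without WT MTE 1. The gene that fell was Myh1, the IIx myosin heavy chain, at 11300.5, 3316, 7753 and 4525 CPM in KO MTE, against 21128, 14257, 19106 and 23115 CPM in WT MTE. Its log2 fold change was -1.53 ± 0.36 (adjusted p 0.0484), and it lost its call in 8 of 16 other settings, including the fit of all 15 libraries and fits without 1 library (any library but KO MTE 1, adjusted p up to 0.130). The neighbouring Myh2 (-0.29) and Myh4 (-0.51) did not pass, and reads may be split differently among these similar genes. The antisense transcript 9430073C21Rik, which adjoins Myh1, was also lower (-1.57). Of 15 developmental sarcomere genes, 3 rose (20%, against 2.33% of all genes) and none fell. The median was 0.42, or 0.24 without WT MTE 4, 0.25 without WT MTE 2 and 0.26 without KO MTE 4. Tnnc1 and Tnni1, also counted among the slow genes, were joined by Myl6b, the slow and embryonic myosin light chain, at 43.9, 47.9, 37.1 and 32.3 CPM in KO MTE, against 16.8, 10.9, 11.7 and 10.3 CPM in WT MTE. KO MTE differed by a log2 fold change of 1.70 ± 0.18 (adjusted p 0.00202), and the fit of all 15 libraries did not call Myl6b (adjusted p 0.0654). The embryonic Myh3 (-0.74) and neonatal Myh8 (0.87) myosin heavy chains did not pass. In the list of muscle fibre identity genes, Dmd was the other member that fell besides Myh1. Dystrophin, the product of Dmd, links the fibre's cytoskeleton to the membrane, and Dmd had 311, 211, 524 and 325 CPM in KO MTE, against 961, 741, 1009 and 1382 CPM in WT MTE. The fit gave a log2 fold change of -1.58 ± 0.28 (adjusted p 0.017). Gm14769, a processed pseudogene within the body of Dmd, had a log2 fold change of -2.30 and may share its reads. It was not called in the fit of all 15 libraries (adjusted p 0.0755). The call of Dmd was lost without 1 library (KO MTE 4 or WT MTE 3, adjusted p up to 0.0577).

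Genes of the neuromuscular junction and of the response to denervation made up the next group. Of 25 tested, 4 rose (16%, against 2.33% of all genes) and none fell. A positive log2 fold change was seen in 20, against 8250 of 16938 genes tested. The median was 0.40, or 0.27 without KO MTE 4. Chrna1, the alpha subunit of the muscle acetylcholine receptor, had 138, 229, 253 and 506 CPM in KO MTE, against 70.4, 56.9, 76.5 and 64.9 CPM in WT MTE. Its log2 fold change came to 2.07 ± 0.33 (adjusted p 0.0116). The receptor's delta subunit Chrnd had 8.54, 17.5, 25.9 and 68.1 CPM in KO MTE, against 4.56, 7.18, 5.79 and 3.36 CPM in WT MTE. On the log2 scale the difference was 2.51 ± 0.57 (adjusted p 0.0489). KO MTE 4 was the highest library for both subunits, and the call of Chrnd was lost in 12 of 16 other settings, including fits without 1 library (any library but KO MTE 1, adjusted p up to 0.125). Musk, the receptor kinase that organises the junction, had 48.2, 56.6, 72.8 and 108 CPM in KO MTE, against 35.6, 23.8, 23.9 and 33.7 CPM in WT MTE. The corresponding log2 fold change was 1.28 ± 0.25 (adjusted p 0.0224). Lrp4, the coreceptor through which agrin reaches Musk, had 36.2, 32.7, 25.9 and 26.6 CPM in KO MTE, against 16.2, 17.1, 19.4 and 19.14 CPM in WT MTE. That is a log2 fold change of 0.76 ± 0.14 (adjusted p 0.0181). Leaving out 1 library ended the calls of Musk (WT MTE 2 or WT MTE 3, adjusted p up to 0.0846) and Lrp4 (KO MTE 2, WT MTE 2 or WT MTE 3, adjusted p up to 0.0736). Lrp4 also lost its call in the fit of all 15 libraries (adjusted p 0.0826). The fetal gamma subunit gene Chrng, at 4.47, 15.1, 13.9 and 72.6 CPM in KO MTE, against 3.95, 3.02, 3.03 and 0.747 CPM in WT MTE, did not pass (log2 fold change 3.27 ± 0.85, adjusted p 0.076), and neither did Myog (1.14), Rapsn (1.09) and Agrn (0.08). Outside the list, Chrna9, an acetylcholine receptor subunit known from hair cells, had 1.86, 4.55, 1.32 and 5.34 CPM in KO MTE, against 0.179, 0.0227, 0.334 and 0.0831 CPM in WT MTE. This was a log2 fold change of 4.35 ± 0.65 (adjusted p 0.00785). The summed level of the list was 843 to 1669 CPM in KO MTE and 714 to 796 CPM in WT MTE.

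Promoter sequences of 5 genes from these groups are shown to give the bases behind the genes that the comparison turned on: 2 junction genes, 1 slow troponin gene, 1 muscle gene that fell and the nuclear receptor. Each runs 5′ to 3′ on the gene's own strand from 250 bases before to 50 bases after the RefSeq start (GRCm38.p6), and capitals mark matches to the E-box CANNTG, which myogenic factors such as MyoD and myogenin bind, and to the nuclear receptor half-site GGTCA, both searched on both strands.
Chrna1, chr2:73580289-73580588, minus strand: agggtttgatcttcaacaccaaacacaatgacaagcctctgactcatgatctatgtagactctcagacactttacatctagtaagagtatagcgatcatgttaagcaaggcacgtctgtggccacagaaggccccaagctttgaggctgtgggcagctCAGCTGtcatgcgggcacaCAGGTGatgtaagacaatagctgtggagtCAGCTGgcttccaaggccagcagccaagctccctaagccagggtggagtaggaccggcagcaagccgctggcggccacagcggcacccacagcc
Musk, chr4:58285712-58286011, plus strand: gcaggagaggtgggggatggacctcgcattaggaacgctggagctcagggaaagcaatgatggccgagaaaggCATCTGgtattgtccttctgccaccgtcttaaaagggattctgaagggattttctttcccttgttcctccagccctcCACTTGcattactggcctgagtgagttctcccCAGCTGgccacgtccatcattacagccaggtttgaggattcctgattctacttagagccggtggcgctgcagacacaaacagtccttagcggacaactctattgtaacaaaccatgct
Tnnc1, chr14:31208062-31208361, plus strand: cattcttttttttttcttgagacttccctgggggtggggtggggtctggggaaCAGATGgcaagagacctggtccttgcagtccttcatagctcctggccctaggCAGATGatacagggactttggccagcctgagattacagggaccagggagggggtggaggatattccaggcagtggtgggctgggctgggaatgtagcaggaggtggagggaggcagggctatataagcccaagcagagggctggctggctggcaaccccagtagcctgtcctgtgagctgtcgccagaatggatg
Mss51, chr14:20496852-20497151, minus strand: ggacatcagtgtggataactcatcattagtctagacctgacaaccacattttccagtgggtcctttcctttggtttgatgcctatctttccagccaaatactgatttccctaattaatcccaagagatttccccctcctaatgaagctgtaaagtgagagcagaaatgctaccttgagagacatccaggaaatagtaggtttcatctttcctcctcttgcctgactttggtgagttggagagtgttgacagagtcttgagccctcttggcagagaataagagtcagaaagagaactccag
Esr1, chr10:4611739-4612038, plus strand: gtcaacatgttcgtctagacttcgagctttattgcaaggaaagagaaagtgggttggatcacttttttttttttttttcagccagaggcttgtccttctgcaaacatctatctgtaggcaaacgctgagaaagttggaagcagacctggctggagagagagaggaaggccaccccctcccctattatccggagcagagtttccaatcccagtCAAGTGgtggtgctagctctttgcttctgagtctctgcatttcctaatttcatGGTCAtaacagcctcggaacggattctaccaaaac

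The windows of Chrna1 and Musk held 3 E-boxes each and that of Tnnc1 held 2, that of Esr1 held 1 E-box and 1 half-site, and that of Mss51 held neither motif. RefSeq windows were found for 301 of the genes called higher, 133 of those called lower and 11535 of all genes tested. An E-box lay in 73.8% of the windows of genes called higher, 69.2% of those called lower and 63.9% of all. The half-site lay in 36.9% of windows of genes called higher, 39.1% of those called lower and 37.5% of all. A match describes the letters only and shows no binding.

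Of 33 imprinted genes tested, edgeR called 4 higher (12.1%, against 2.33% of all genes) and none lower. DESeq2 called 6 higher and 1 lower, and the median log2 fold change was -0.07. Peg10, an imprinted gene derived from a retrotransposon, had 15.9, 35.4, 46.0 and 37.0 CPM in KO MTE, against 7.33, 10.8, 7.12 and 7.52 CPM in WT MTE. The fitted log2 fold change was 2.03 ± 0.29 (adjusted p 0.00598). The other 3 were the noncoding RNAs Meg3, Rian and Mirg of the Dlk1-Dio3 region, which are expressed from the maternal chromosome. All 3 had non-overlapping groups, as had 390 of the 395 genes called higher. Meg3 had 244, 332, 234 and 132 CPM in KO MTE, against 69.5, 85.1, 78.8 and 45.4 CPM in WT MTE. KO MTE differed by a log2 fold change of 1.76 ± 0.27 (adjusted p 0.00888). Rian had 635, 1106, 890.0 and 435 CPM in KO MTE, against 193, 325, 265 and 189 CPM in WT MTE. The fit gave a log2 fold change of 1.66 ± 0.29 (adjusted p 0.0161). Its KO MTE 2 library was the highest, as for Meg3. Mirg had 32.7, 43.2, 31.7 and 18.2 CPM in KO MTE, against 12.8, 16.6, 13.2 and 10.3 CPM in WT MTE. Its log2 fold change came to 1.25 ± 0.24 (adjusted p 0.023). KO MTE 4 was the lowest KO MTE library for all 3. With the transcripts Gm37899 and B830012L14Rik between them, they formed a run, unbroken among tested genes, of 5 genes called higher at chr12:109541001-109749460, with log2 fold changes of 1.04 to 1.76. Meg3 and Mirg lost their calls in the fit of all 15 libraries (adjusted p 0.0544 and 0.143), and removal of 1 library ended the calls of Mirg (KO MTE 2 or WT MTE 3, adjusted p up to 0.0835) and Rian (WT MTE 3, adjusted p 0.0593). Among the imprinted genes that did not pass were H19 (0.77), Igf2 (-0.87), Peg3 (1.05) and Dlk1 (-0.76).

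Zinc finger genes with a numbered Zfp symbol rose in 13 of 360 cases (3.61%, against 2.33% of all genes) and fell in none by edgeR, with a median log2 fold change of 0.07, while DESeq2 called 24 higher and 1 lower. Zfp873 had 4.84, 5.99, 6.35 and 5.64 CPM in KO MTE, against 1.69, 2.32, 2.31 and 1.54 CPM in WT MTE. On the log2 scale the difference was 1.53 ± 0.19 (adjusted p 0.00361). Zfp97 had 19.01, 22.5, 27.9 and 20.4 CPM in KO MTE, against 9.33, 11.7, 12.6 and 10.8 CPM in WT MTE. The corresponding log2 fold change was 1.02 ± 0.15 (adjusted p 0.00785). The groups of both genes were without overlap, like those of 390 of the 395 genes called higher. Zfp97 was not called in the fit of all 15 libraries (adjusted p 0.0714). Zfp934 averaged 7.19 ± 1.65 CPM in KO MTE, against 2.86 ± 0.708 CPM in WT MTE (1.34, adjusted p 0.0149). Zfp938 averaged 13.5 ± 2.75 CPM in KO MTE, against 6.83 ± 1.27 CPM in WT MTE (0.99, adjusted p 0.0233). Leaving out 1 library ended the calls of Zfp934 (WT MTE 3, adjusted p 0.0629) and Zfp938 (KO MTE 2 or WT MTE 3, adjusted p up to 0.0899). The other 9 ranged from 0.54 (Zfp955b) to 2.13 (Zfp385c). Zfp781, Zfp873 and Zfp938 belonged to the longest run of called genes that was unbroken among tested genes. It held 8 neighbours at chr10:81901911-82241280 that were all higher, with log2 fold changes of 0.99 to 1.76. The run also held BC024063 (1.32) and AU041133 (1.71) and the transcripts Gm33378, Gm47572 and Gm47573, and apart from Zfp938 its genes reached no more than 11.5 CPM, in AU041133, in any KO MTE library. In all, 32 runs of 2 or more neighbouring genes called in the same direction were found. Neighbours were taken among tested genes only, and some runs hold overlapping or similar genes that may share reads. No background number of runs was computed, so the count shows no clustering. None of 6 germline genes tested was called by edgeR or DESeq2, and 1 had an unadjusted p under 0.05.

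Of 42 genes of growth signalling, edgeR called 5 lower (11.9%, against 1.06% of all genes) and none higher. DESeq2 called 7 lower and 2 higher. The median log2 fold change was -0.07. The 5 were Mss51, Mettl21e and Mettl21c, given above, Fst and Lif. The lists were chosen with earlier results of these data known, so the count and direction of these calls are no independent result. Follistatin, the product of Fst, binds and blocks myostatin and activins, and Fst had 8.08, 7.69, 9.83 and 10.9 CPM in KO MTE, against 16.8, 14.3, 16.9 and 19.5 CPM in WT MTE. That is a log2 fold change of -0.89 ± 0.16 (adjusted p 0.0154). The cytokine gene Lif averaged 1.71 ± 0.275 CPM in KO MTE, against 3.78 ± 0.883 CPM in WT MTE (-1.15, adjusted p 0.0241). Neither Mstn (-0.06) nor Igf1 (-0.42) nor Mtor (0.43) passed. Among 24 satellite cell and myogenic regulators, Itga7, the laminin-binding integrin of muscle, rose, and Mymx, the fusion peptide myomixer, fell. Itga7 averaged 235 ± 45.8 CPM in KO MTE, against 107 ± 23.7 CPM in WT MTE (1.14, adjusted p 0.0148). Mymx averaged 0.195 ± 0.0941 CPM in KO MTE, against 0.707 ± 0.244 CPM in WT MTE (-1.88, adjusted p 0.0403). Pax7 (0.33), Myod1 (1.04) and Myf5 (0.07) did not pass. Leaving out 1 library ended the calls of Fst (KO MTE 2 or WT MTE 3, adjusted p up to 0.0680), Itga7 (KO MTE 2 or WT MTE 3, adjusted p up to 0.0580) and Mymx (any library but WT MTE 4, adjusted p up to 0.127). Such fits were not examined for Lif. In the fit of all 15 libraries Lif, Itga7 and Mymx were not called (adjusted p 0.294, 0.179 and 0.168).

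Ubiquitin ligase and FoxO genes were called in both directions, with 1 of 37 higher, 3 lower and a median of 0.03. This was 10.8% called in either direction, against 3.39% of all genes. Trim55, the muscle ring finger protein MuRF2, had 38.3, 37.97, 39.1 and 39.5 CPM in KO MTE, against 20.2, 23.8, 21.1 and 27.9 CPM in WT MTE. This was a log2 fold change of 0.74 ± 0.12 (adjusted p 0.0104). The 3 that fell were substrate receptors of the Asb family: Asb15, Asb14 and Asb5. Asb15 averaged 4.19 ± 1.47 CPM in KO MTE, against 13.1 ± 2.96 CPM in WT MTE (-1.65, adjusted p 0.0103). Asb14 averaged 13.2 ± 3.95 CPM in KO MTE, against 27.2 ± 1.72 CPM in WT MTE (-1.04, adjusted p 0.0211). Asb5, whose groups overlapped, averaged 59.9 ± 27.2 CPM in KO MTE, against 169.8 ± 62.1 CPM in WT MTE (-1.5, adjusted p 0.0459). The atrophy ligases Fbxo32 (0.13) and Trim63 (-0.52) did not pass. In the list of mechanical stress genes, 1 of 20 fell. It was Fhl1, a LIM domain protein of the sarcomere, at 1556, 1294, 1746 and 1937 CPM in KO MTE, against 3624, 2955, 3464 and 5499.9 CPM in WT MTE. The fitted log2 fold change was -1.25 ± 0.23 (adjusted p 0.0175). Capn3, the muscle calpain, was the 1 of 17 calpain, caspase and inhibitor genes that fell. It averaged 76.3 ± 5.55 CPM in KO MTE, against 111 ± 11.9 CPM in WT MTE (-0.54, adjusted p 0.0295). Of 27 genes of excitation-contraction coupling, Sypl2 (0.66) and Hrc (0.53), proteins of the triad and the sarcoplasmic reticulum, rose and triadin, Trdn (-0.79), fell, with adjusted p of 0.0195, 0.038 and 0.0469. Many calls in these lists did not hold in fits with 1 library fewer. Calls were lost when 1 library was left out for Trim55 (WT MTE 3, adjusted p 0.0529), Asb14 (KO MTE 2, WT MTE 2 or WT MTE 3, adjusted p up to 0.0753) and Asb5 (any library but KO MTE 4 and WT MTE 2, adjusted p up to 0.134). The same held for Fhl1 (KO MTE 2 or WT MTE 3, adjusted p up to 0.0729), Capn3 (any library but KO MTE 1 and WT MTE 2, adjusted p up to 0.119) and Sypl2 (KO MTE 2, KO MTE 4, WT MTE 1, WT MTE 2 or WT MTE 3, adjusted p up to 0.0792), and for Hrc (any library but WT MTE 4, adjusted p up to 0.122) and Trdn (any library but KO MTE 3, adjusted p up to 0.160). Of these, Asb14, Asb5, Sypl2, Hrc and Trdn also lost their calls in the fit of all 15 libraries (adjusted p 0.0565, 0.0828, 0.0762, 0.0711 and 0.266).

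Subunits of oxidative phosphorylation differed little but in 1 direction. All 77 tested had a positive log2 fold change, with a median of 0.39, against 8250 of 16938 genes tested with a positive value. Of the 77, 4 (5.19%) were called, all higher, against 2.33% of all genes. At an unadjusted p under 0.05 there were 50 of them, and DESeq2 called 30, all higher. The ATP synthase subunit Atp5h averaged 280.0 ± 21.1 CPM in KO MTE, against 198 ± 11.9 CPM in WT MTE, and Atp5j, of the same enzyme, 140.0 ± 20.8 CPM in KO MTE, against 96.0 ± 4.09 CPM in WT MTE. The cytochrome oxidase subunit Cox5a averaged 128 ± 15.98 CPM in KO MTE, against 90.5 ± 5.52 CPM in WT MTE. The complex I subunit Ndufa1 averaged 44.7 ± 5.76 CPM in KO MTE, against 30.4 ± 4.11 CPM in WT MTE. Their log2 fold changes were 0.50, 0.54, 0.50 and 0.56, with adjusted p between 0.0406 and 0.0498, and all 4 lost their calls in the fit of all 15 libraries. They also lost them in nearly every fit that left out 1 library, as the removals that ended each call show: Atp5h (any library but KO MTE 1, adjusted p up to 0.149), Atp5j (any library but KO MTE 1, adjusted p up to 0.148), Cox5a (any of the 8 libraries, adjusted p up to 0.132) and Ndufa1 (any library but KO MTE 1, adjusted p up to 0.163). The summed level of the subunits was 13217 to 15265 CPM in KO MTE and 9889 to 11838 CPM in WT MTE, so the groups did not overlap. Mitochondrially encoded genes had a median of 0.06, and none of 15 was called by edgeR or DESeq2 or had an unadjusted p under 0.05. In fatty acid oxidation and the citrate cycle, Fabp3, the fatty acid binding protein of heart and slow muscle, had 399, 482, 379.5 and 409.7 CPM in KO MTE, against 189, 118, 266 and 139.7 CPM in WT MTE. KO MTE differed by a log2 fold change of 1.23 ± 0.23 (adjusted p 0.0211). Fumarase, Fh1, was also higher (0.50, adjusted p 0.0248), while Ucp3 and the carnitine palmitoyltransferase Cpt1a (-0.78, adjusted p 0.0467) were lower, and the 37 genes had a median of 0.20. Calls that ended without 1 library were those of Fabp3 (KO MTE 2 or KO MTE 4, adjusted p up to 0.0729), Fh1 (any library but KO MTE 1 and WT MTE 4, adjusted p up to 0.109) and Cpt1a (any library but WT MTE 1, adjusted p up to 0.127). The fit of all 15 libraries called neither Fabp3 nor Cpt1a (adjusted p 0.0891 and 0.142). No gene of glycolysis and glycogen metabolism was called among 32 by edgeR (median 0.12), where 10 had an unadjusted p under 0.05 and DESeq2 called 3 higher and 2 lower.

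**Figure D3:**
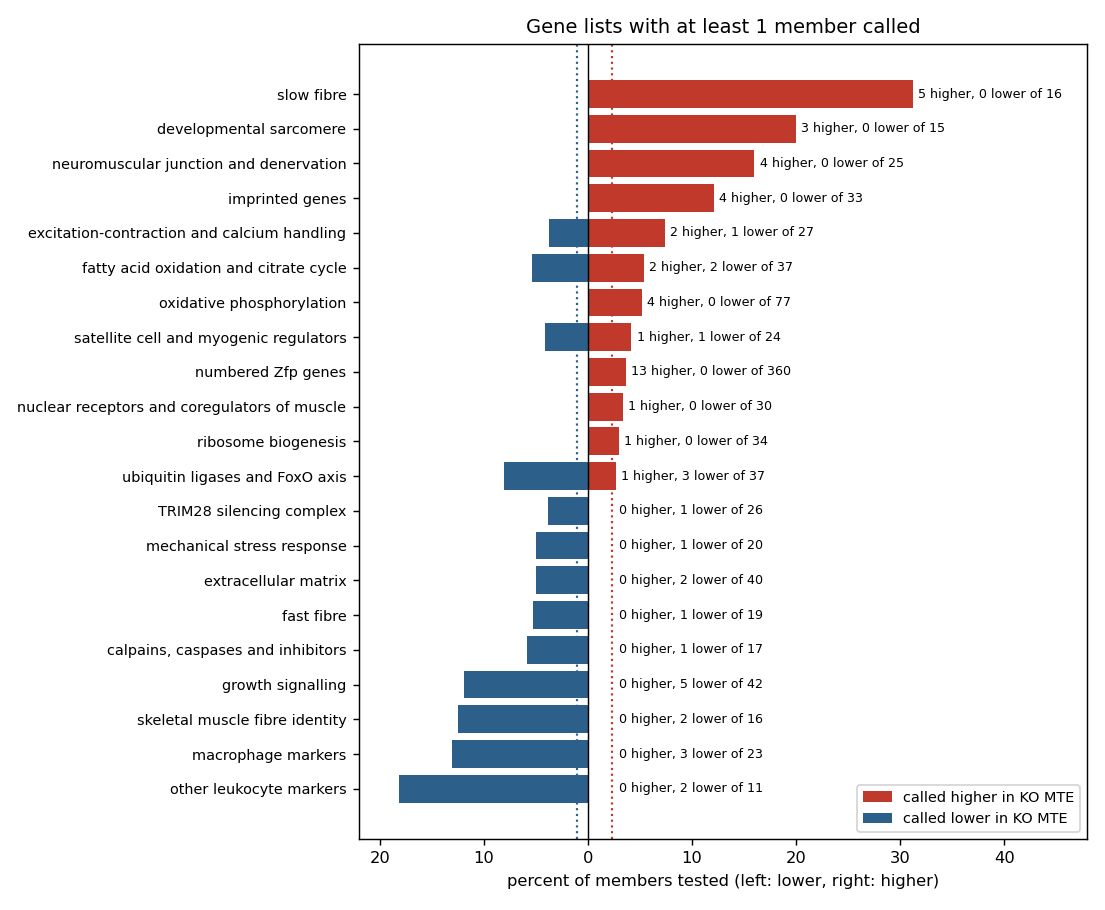
Share of the tested members of each gene list called higher (red, to the right) or lower (blue, to the left) in KO MTE, in percent, for the lists with at least 1 call; the dotted lines mark the shares over all genes, 2.33% and 1.06%. Slow fibre genes had the largest share called higher (5 of 16), and leukocyte markers the largest share called lower (2 of 11). The lists were chosen with earlier results of these data known.

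Markers of cells between the fibres leaned the other way. Of 23 macrophage markers, 3 fell (13.0%, against 1.06% of all genes) and none rose. Only 1 had a positive value, against 8250 of 16938 genes tested, and the median was -0.49. Fcer1g, the signalling chain of Fc receptors, had 14.5, 16.1, 13.8 and 17.8 CPM in KO MTE, against 20.96, 23.1, 26.5 and 28.4 CPM in WT MTE. The fit gave a log2 fold change of -0.67 ± 0.14 (adjusted p 0.0275). Itgam, which encodes CD11b, averaged 36.3 ± 3.87 CPM in KO MTE, against 65.3 ± 18.8 CPM in WT MTE (-0.85, adjusted p 0.033), and the lysosomal protease Ctss 101 ± 15.5 CPM in KO MTE, against 180.0 ± 47.4 CPM in WT MTE (-0.83, adjusted p 0.042). The defining macrophage genes Adgre1 (-0.40), Cd68 (-0.38) and Csf1r (-0.32) did not pass. Among 11 other leukocyte markers Ptprc, which encodes CD45, and the receptor kinase Flt3 fell (-0.55 and -1.09, adjusted p 0.0326 and 0.035), and the median was -0.63. The summed macrophage level was 1538 to 1804 CPM in KO MTE and 2015 to 2803 CPM in WT MTE, and that of the other leukocyte markers 68.3 to 78.2 CPM in KO MTE and 119 to 304 CPM in WT MTE. The Fc receptor genes in a row on chromosome 1, Fcgr2b, Fcgr4 and Fcgr3, were lower, with log2 fold changes of -0.54, -0.94 and -0.62. For these Fc receptor genes, fits without 1 library were not examined. The calls of the markers Fcer1g, Itgam, Ctss, Ptprc and Flt3 were all lost in the fit of all 15 libraries. Removal of 1 library also ended those of Fcer1g (any library but KO MTE 4 and WT MTE 1, adjusted p up to 0.0981), Itgam (KO MTE 2, KO MTE 3, KO MTE 4 or WT MTE 3, adjusted p up to 0.108) and Ctss (any library but WT MTE 1, adjusted p up to 0.124). The same was seen for Ptprc (any library but WT MTE 1, adjusted p up to 0.117) and Flt3 (KO MTE 2, KO MTE 4, WT MTE 1, WT MTE 2 or WT MTE 3, adjusted p up to 0.122).

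Extracellular matrix genes had a median log2 fold change of -0.43 with 1 of 40 positive, against 8250 of 16938 genes tested. EdgeR called 2, both lower (5%, against 1.06% of all genes). The median was -0.25 without WT MTE 2. Tnc, which encodes the matrix glycoprotein tenascin C, had 787, 569, 521 and 718 CPM in KO MTE, against 1519.7, 1322, 873 and 1050.2 CPM in WT MTE. It fell, with a log2 fold change of -0.88 ± 0.21 (adjusted p 0.0489). The collagen crosslinking enzyme Lox averaged 457 ± 28.4 CPM in KO MTE, against 761 ± 182 CPM in WT MTE (-0.74, adjusted p 0.0498). Both adjusted p were close to 0.05, and removal of 1 library ended the calls of Tnc (any library but KO MTE 1, adjusted p up to 0.156) and Lox (any library but WT MTE 2, adjusted p up to 0.166). Neither was called in the fit of all 15 libraries (adjusted p 0.399 and 0.245). The collagens Col1a1 (-0.12) and Col3a1 (-0.42) did not pass. The summed matrix level overlapped between the groups, at 28442 to 36796 CPM in KO MTE and 26561 to 53955 CPM in WT MTE. Markers of fibro-adipogenic progenitors (median -0.29, 0 of 15 positive) and adipocytes (-0.53, 0 of 8 positive) and genes of the cell cycle (-0.47, 5 of 30 positive) also lay below 0 without a call by edgeR. At an unadjusted p under 0.05 there were 4 progenitor, 4 adipocyte and 17 cell cycle genes, and DESeq2 called 0, 2 and 6 of them lower and 1 cell cycle gene higher. Over all genes tested, 3344 of 16938 had such a p. Medians of the endothelial (-0.09), smooth muscle and pericyte (-0.17), Schwann cell (-0.10) and tendon (-0.16) markers were nearer to that of all genes. EdgeR called none of their members, of which 3, 4, 0 and 1 had an unadjusted p under 0.05, and DESeq2 called 1 endothelial gene lower and 1 smooth muscle and 1 tendon gene higher. The part of these cell markers in the differences of matrix and leukocyte genes was not tested. The 8 erythroid genes had a median of -0.42 with 0 positive values, no call by edgeR, 2 at an unadjusted p under 0.05 and 1 lower by DESeq2.

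**Figure D4:**
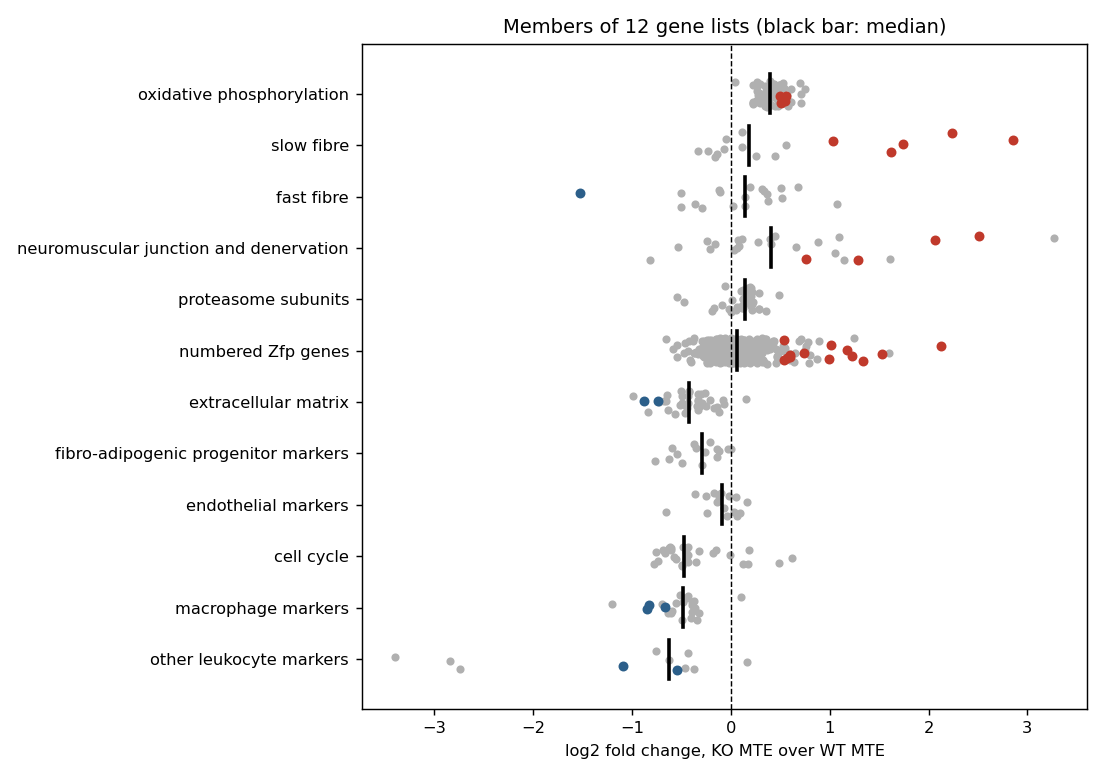
Log2 fold change of KO MTE over WT MTE for each tested member of 12 gene lists (points), with called members in red (higher) or blue (lower) and the median as a black bar. Oxidative phosphorylation subunits sit above 0 with a median of 0.39, while macrophage markers, with a median of -0.49, lie below 0 with 1 exception.

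Other lists with no edgeR call had medians between -0.15 and 0.15, and some of them leaned to 1 side. Over all genes tested, 3344 of 16938 had an unadjusted p under 0.05, and DESeq2 called 1560. Cytosolic ribosomal proteins (87 genes, median 0.08) and proteasome subunits (42 genes, median 0.15) had 0 and 4 members at an unadjusted p under 0.05 and none by DESeq2. Autophagy and lysosome genes (33, median 0.11) had 3 members at that p, and DESeq2 called 1 lower. Amino acid and ATF4 response genes (24, median -0.15) had 9, and DESeq2 called 1 higher and 3 lower. Heat shock and unfolded protein genes (28, median 0.02) had 4, with 2 higher and 1 lower by DESeq2, and p53 targets (19, median -0.07) had 3, with 1 lower. Positive log2 fold changes were seen in 64 of 87 ribosomal, 35 of 42 proteasome and 25 of 33 autophagy genes. The numbers were 4 of 24 for the ATF4 response, 14 of 28 for heat shock and 8 of 19 for p53, against 8250 of 16938 genes tested. In ribosome biogenesis 1 of 34 rose, Polr1a, the largest subunit of RNA polymerase I, at 84.1 ± 5.05 CPM in KO MTE, against 53.5 ± 8.14 CPM in WT MTE (0.65, adjusted p 0.0211), and its call ended without 1 library (KO MTE 2, KO MTE 4, WT MTE 2 or WT MTE 3, adjusted p up to 0.0835). Several medians of lists with no edgeR call depended on which library was left out, ranging from -0.85 to -0.14 for the erythroid genes, from -0.33 to -0.01 for the interferon-stimulated genes, from -0.02 to 0.24 for glycolysis and glycogen genes and from -0.25 to -0.09 for the ATF4 response. Those of the smooth muscle, tendon and Schwann cell markers ran from -0.31 to -0.06, from -0.27 to -0.06 and from -0.21 to 0.01.

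The genotype difference was set beside that of the Sham libraries, which share no library with it. The Sham libraries include 2 that stood apart, WT Sham 1, where the leukocyte gene Itgam was at 169 CPM while WT Sham 2 to 4 had 7.46 to 23.1 CPM, and KO Sham column 3, with the highest mitochondrial share (20.5%). Of the 370 genes called higher under MTE that could be tested in Sham, 340 (91.9%) had a positive log2 fold change of KO Sham over WT Sham, and of 174 called lower, 160 (92.0%) had a negative one. Over all 16151 genes tested in both, 64.5% had the same sign. Without the 2 libraries the shares were 94.4% of 372 genes called higher and 69.4% of 173 called lower. The same-sign share of the genes called lower thus depended on these 2 libraries. The share over all genes was not computed without them, so these values have no background of their own. With 7 Sham libraries edgeR called 6 genes in KO Sham against WT Sham (0.0368% of 16295), 4 higher (0.0245%) and 2 lower (0.0123%), with 865 genes at an unadjusted p under 0.05. These 6 were also called under MTE in the same direction: Gm39469, Esr1, Gm32312 and Acox2 higher, Egf and Flrt1 lower.

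Esr1 had 200.1, 193 and 177 CPM in KO Sham, against 29.4, 45.8, 32.9 and 37.6 CPM in WT Sham, a log2 fold change of 2.38 ± 0.18 under Sham (adjusted p 0.00828). Gm39469 had 12.1, 15.7 and 22.1 CPM in KO Sham, against 1.64, 1.30, 1.63 and 1.67 CPM in WT Sham, a log2 fold change of 3.41 ± 0.25 (adjusted p 0.00828). Under MTE the log2 fold changes of these genes were 2.74 and 3.38. Trim28 had 11.3, 10.4 and 4.84 CPM in KO Sham, against 44.5, 24.9, 32.7 and 27.2 CPM in WT Sham (log2 fold change -1.86 ± 0.34, adjusted p 0.183). Mss51 had 19.03, 3.19 and 13.1 CPM in KO Sham, against 102, 277, 320.4 and 297 CPM in WT Sham (-4.40 ± 0.70, adjusted p 0.14), so edgeR called neither gene in the 7 Sham libraries, while the fit of all 15 libraries called Trim28 under Sham (log2 fold change -1.84, adjusted p 0.0101). In the fit of all 15 libraries 88 genes (0.511%) were called under Sham, of which 61 were also called under MTE by the fit of the 8 libraries, all 61 in the same direction.

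**Figure D5:**
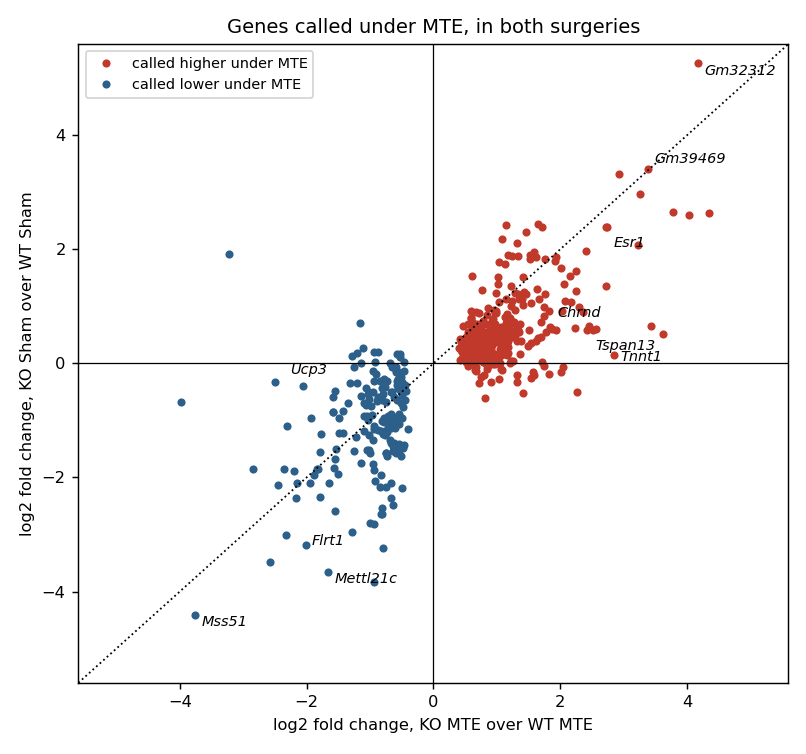
Log2 fold change of KO over WT under MTE (x axis) and under Sham (y axis) for the genes called under MTE and tested in both, red for those called higher and blue for those called lower; the dotted diagonal marks equal values. Esr1, Gm39469 and Mss51 lie near the diagonal, while Tnnt1, at 2.85 under MTE and 0.15 under Sham, lies far below it.

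Whether the genotype difference changed with overload was tested as the interaction, the difference under MTE minus that under Sham, in all 15 libraries. EdgeR called 0 of 17212 genes (605 at an unadjusted p under 0.05), limma voom called 0 and DESeq2 called 10. Of the 575 genes called under MTE, 138 had an unadjusted interaction p under 0.05. The interaction contains the same MTE difference by which these genes were chosen, so this count cannot show an effect of overload. The DESeq2 calls included Uchl1, a neuronal ubiquitin hydrolase (interaction 2.72, DESeq2 adjusted p 0.000484), Tspan13 (1.76, 0.000535) and Tnnt1 (2.66, 0.0235). For these 3 genes edgeR's interactions were 2.68 ± 0.50, 1.73 ± 0.30 and 2.64 ± 0.62, with an adjusted p of 0.776, 0.662 and 0.989. Tnnt1 had 35.04, 56.0 and 14.1 CPM in KO Sham, against 34.3, 17.3, 44.3 and 31.0 CPM in WT Sham, and its groups overlapped under Sham. Interactions of the other slow troponins in edgeR were 1.54 ± 0.58 for Tnnc1 and 1.70 ± 0.71 for Tnni1, and that of Chrnd was 1.85 ± 0.71, with adjusted p of 0.989, 0.989 and 0.989. That of Esr1 was 0.29 ± 0.28 and that of Trim28 0.85 ± 0.38, with adjusted p of 0.989 and 0.989.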

How the data were processed

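RNA was measured by sequencing of rRNA-depleted, stranded libraries of mouse plantaris, per the labels' protocols. The deposited table holds estimated counts per Ensembl gene. STAR, RSEM, edgeR and GRCm38 are named in the submitters' processing notes, without versions, and the sources used here do not state the strand setting of the counting. The estimated counts were rounded to whole numbers. A second deposited table gives FDR-adjusted p-values and mean log2 values per group, which the authors computed, per the file headers, after TMM normalization and relative to WT Sham. Its p-value columns headed WT MTE vs KO MTE and WT sham vs WT MTE were identical in all 17217 rows, so it was used only for a check.

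KO MTE was compared with WT MTE in the 8 MTE libraries (edgeR 4.0.16 in R 4.3.3: filterByExpr, TMM, robust quasi-likelihood test, Benjamini-Hochberg adjusted p under 0.05). SEs were derived from the fold change and its F statistic. The 8 libraries were fitted alone, since 2 Sham libraries stood apart and would have entered a shared estimate of the spread. Sham libraries were fitted alone, and the interaction in all 15. The script was tested on simulated counts. Alternatives were DESeq2 1.42.0, limma 3.58.1 voom with and without quality weights, RLE scaling, other filters, all 15 libraries, a replicate block and leaving out each library. Genes were placed with GENCODE M21 and promoters with RefSeq, both GRCm38. Counts were 26.5 M to 69.2 M per MTE library, and the SEs hold the spread among libraries as well as counting error.

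Genes are named by a rule: per direction, the 15 largest differences without overlap between groups and with at least 1 CPM in 1 group, and the 10 smallest p, then up to 4 called members of each list and genes called under both surgeries. Others named as called, such as Sln, Lif, Krt8, Gsta4, Uchl1, Igkc, Igha, the Fcgr genes, 9430073C21Rik and members of neighbour runs, were chosen after their values were seen. For those that the rule did not select, fits without 1 library were not examined. The members and gene lists were chosen with earlier results of these data known. Replicate numbers were not taken as pairs: same-numbered KO MTE and WT MTE libraries correlated at 0.47, 0.17, 0.056 and 0.23 in their deviations from group means.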

Additional observations from a re-analysis of the deposited data

Results flagged for a closer look

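Among 186 sets of 4 libraries examined, 8 held a single library far from the other 3, and chance alone gives this in about 1 of 20 sets. In WT MTE 2, Esr1 was at 40.2 CPM (29.1 to 30.1 CPM in the other WT MTE libraries) and Peg10 at 10.8 CPM (7.12 to 7.52 CPM). In WT MTE 4, Acox2 was at 0.208 CPM (0.614 to 0.669 CPM elsewhere in WT MTE), Gm47898 at 2.62 CPM (1.77 to 1.84 CPM), and the total count was 26.5 M (38.2 M to 40.05 M). Gm45670 was at 0.0772 CPM in WT MTE 3 (0.154 to 0.166 CPM), and Atp5h at 180.0 CPM in WT MTE 1 (203 to 205 CPM). Slc6a19 was at 4.504 CPM in KO MTE 4, against 1.52 to 1.997 CPM in the other KO MTE libraries. Esr1, Acox2, Peg10 and Gm45670 were called in all 16 other settings, so the library that stood apart did not end those calls.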

How the results depend on the processing

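The count of 575 genes (395 higher, 180 lower in KO MTE) stayed within 1.5 times with RLE scaling (546), no filter (569), a filter of 1 CPM in 4 libraries (578) and limma voom (505). It was 253 (209 higher, 44 lower) in the fit of all 15 libraries, 1560 (892, 668) with DESeq2 and 1255 (758, 497) with voom quality weights. With the replicate block it was 885 (553, 332), although the numbers were not taken as pairs. Leaving out 1 library gave 146 to 549 calls (118 to 433 higher, 25 to 164 lower), with the lowest total without WT MTE 3. Called list members numbered 63, against 25, 172, 127 and 97 in the fit of all 15 libraries, DESeq2, voom quality weights and the replicate block, and 17 to 64 without 1 library. The log2 fold change of Trim28 was -0.99 in the fit of all 15 libraries (adjusted p 0.0822) and -1.06 to -0.82 without 1 library. Of 90 named genes besides Trim28, 33 were called in all 16 other settings, Oas1e in the 15 that tested it, and none changed sign, while 35 lost their call in the fit of all 15 libraries, 44 without WT MTE 3 and 42 without KO MTE 2. Sham calls numbered 6, against 2 with voom, 165 with DESeq2, 88 in the fit of all 15 libraries, 331 without WT Sham 1 and KO Sham column 3 together, and 0 to 3 without 1 library. Interaction calls numbered 0, against 10 with DESeq2, 1 without those 2 Sham libraries together, and 0 to 1 without 1 library. No paired analysis was possible for the interaction because the KO Sham columns carry no labelled numbers. The causes of these changes were not tested, except that fits without a library hold fewer samples. No scaling moved the median of all genes by over 0.1. At these depths genes near 0 in WT MTE rest on few reads, so their fold changes are imprecise.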

Other observations

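The genes below were chosen after their values were seen. They come from no fixed list, so no count over a pathway is given. For those that the naming rule did not select, the dependence of the calls on single libraries was not examined. Besides Gsto1 and the alpha-class enzymes, Gpx4, Hagh, Glo1, Prdx6, Gstm5 and Gstz1, of glutathione, peroxide and methylglyoxal metabolism, were called higher in KO MTE. Their groups did not overlap, as in 390 of the 395 genes called higher. Genes of this metabolism that were not called were not counted. The aldehyde dehydrogenase Aldh1a1 was called lower (log2 fold change -1.78, adjusted p 0.0132). Gpx4, which reduces lipid peroxides, had 208, 263, 179 and 247 CPM in KO MTE, against 159, 121, 145 and 97.2 CPM in WT MTE. On the log2 scale the difference was 0.78 ± 0.18 (edgeR adjusted p 0.0423). Of the glyoxalases that clear methylglyoxal, Hagh averaged 42.9 ± 7.0 CPM in KO MTE, against 24.0 ± 3.02 CPM in WT MTE (SD, n = 4 each). Glo1 averaged 79.9 ± 4.81 CPM in KO MTE, against 60.3 ± 2.71 CPM in WT MTE. Their log2 fold changes were 0.83 and 0.40. Prdx6, Gstm5 and Gstz1 had log2 fold changes of 0.51, 0.56 and 0.53, with adjusted p of 0.0308, 0.0364 and 0.035. None of these higher genes was called in the 7 Sham libraries by edgeR. It called only 6 of 16295 genes there, so the lack of a call says little about Sham. Gsto1 had a log2 fold change of 0.39 ± 0.15 in Sham.

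Some genes of pyruvate dehydrogenase, the gate from glycolysis to the citrate cycle, were called higher and others did not pass. Pdhb had 213, 223, 215 and 208 CPM in KO MTE, against 138, 155, 139 and 162 CPM in WT MTE. The corresponding log2 fold change was 0.53 ± 0.11 (edgeR adjusted p 0.0248), and Dlat averaged 145 ± 8.34 CPM in KO MTE, against 105 ± 6.76 CPM in WT MTE (0.47, adjusted p 0.0346). The inhibitory kinase Pdk1 had 143, 182, 148 and 132 CPM in KO MTE, against 86.6, 74.0, 80.6 and 96.6 CPM in WT MTE. That is a log2 fold change of 0.84 ± 0.13 (edgeR adjusted p 0.00948), and Pdk2 averaged 116 ± 17.6 CPM in KO MTE, against 78.0 ± 6.17 CPM in WT MTE (0.57, adjusted p 0.0399). The components Pdha1 (0.22), Dld (0.20) and Pdhx (0.32), the kinases Pdk3 (0.53) and Pdk4 (-1.27), the phosphatases Pdp1 (-0.43) and Pdp2 (-0.14) and the phosphatase regulator Pdpr (0.32) did not pass. Both subunits of the Ku end-joining complex were also higher, Xrcc5 at 35.3 ± 6.68 CPM in KO MTE, against 20.3 ± 2.28 CPM in WT MTE (0.80) and Xrcc6 at 30.3 ± 2.49 CPM in KO MTE, against 19.4 ± 1.12 CPM in WT MTE (0.65), with adjusted p of 0.0224 and 0.0126.

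Uchl1 had 23.9, 38.1, 30.9 and 51.0 CPM in KO MTE, against 8.30, 6.68, 9.23 and 5.48 CPM in WT MTE. This was a log2 fold change of 2.27 ± 0.25 (edgeR adjusted p 0.00202), while in Sham it had 2.50, 2.07 and 0.660 CPM in KO Sham, against 3.62, 1.76, 2.47 and 2.23 CPM in WT Sham (log2 fold change -0.50 ± 0.46). Mrln, which encodes the calcium pump inhibitor myoregulin, fell to 1.47, 2.17, 1.61 and 3.15 CPM in KO MTE, against 6.76, 8.20, 8.72 and 5.19 CPM in WT MTE (-1.79 ± 0.27, adjusted p 0.00756), whereas Sln, another inhibitor of that pump, was among the genes that rose. Leukocyte genes outside the lists that were called lower included Il1b (-0.95), Cxcr4 (-0.76) and Csf3r (-0.74), with adjusted p of 0.0481, 0.0389 and 0.0365, and the summed levels of the leukocyte markers given above were lower in KO MTE as well.

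In the authors' deposited table the column of FDR-adjusted p-values headed WT MTE vs KO MTE holds 1201 genes under 0.05, and 574 of the 575 genes called here were among them. Its rank correlation across 17201 genes was 0.909 with the edgeR p of KO MTE against WT MTE and 0.160 with that of WT MTE against WT Sham, the contrast that heads the identical column. Both edgeR p came from the fit of all 15 libraries, not from the fit of 8 libraries that gave the 575 calls. Genes are not independent replicates, and these correlations are given as a description.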
